A study of Mus musculus with 8 samples.

Results

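The common gamma chain cytokine axis was examined in the whole pregnant mouse uterus at embryonic day 8 (E8) through 10 genes: the ligands Il7 and Il15, the receptor chains Il2ra, Il2rb, Il2rg, Il15ra and Il7r, the kinase Jak3 and the transcription factors Stat5a and Stat5b. They were taken by symbol, through the Ensembl IDs of the GENCODE mouse M21 annotation, and not by any measured value. All 10 were found among the 49585 genes of the count table, and all 10 were among the 22693 genes that passed the filter on low counts. The test group was 4 Foxp3DTR females, 8 weeks old, mated with BALB/c males and injected with 1 µg of diphtheria toxin (DT) at E1, E3, E5 and E7. The controls were 4 Foxp3DTR females of the same age, mating and injection days that received PBS, so both groups carried the diphtheria toxin receptor at the Foxp3 locus. Foxp3 is the transcription factor that defines regulatory T cells, and the labels describe the regimen as removing 85% of these cells. Each sample was the entire uterus with the fetal tissue inside it, so reads of maternal and conceptus cells were counted together. DT replicates are numbered 1, 3, 4 and 5 and PBS replicates 1, 2, 4 and 6, as in the labels.

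Interleukin-2, interleukin-7 and interleukin-15 signal through receptors that share the gamma chain encoded by Il2rg. Ligand binding brings the gamma chain, with its kinase JAK3, next to a ligand-specific chain, and the activated complex phosphorylates STAT5, which enters the nucleus. Interleukin-2 sustains regulatory T cells, interleukin-7 sustains naive T cells and innate lymphoid cells, and interleukin-15 is required for uterine natural killer (NK) cells, which are abundant in the mouse decidua after implantation.

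The 10 genes lie on 5 autosomes and the X chromosome of build GRCm38, and 2 pairs of them are neighbours. Il2ra (chromosome 2, 11642807 to 11693193, plus strand) ends 12096 bases before Il15ra (chromosome 2, 11705290 to 11734317, plus strand), with 0 annotated genes lying wholly between them. Stat5b (chromosome 11, 100780731 to 100850724, minus strand) and Stat5a (chromosome 11, 100859351 to 100885169, plus strand) are divergent, 8626 bases apart. The remaining genes are Il2rb (chromosome 15, 78479256 to 78495271, minus strand), Il7r (chromosome 15, 9505788 to 9530176, minus strand), Il2rg (chromosome X, 101264378 to 101268255, minus strand), Il7 (chromosome 3, 7569994 to 7613760, minus strand), Il15 (chromosome 8, 82331632 to 82403222, minus strand) and Jak3 (chromosome 8, 71676296 to 71690575, plus strand). All are annotated as protein coding. Of the 75-base windows of their transcripts, 26% of those of Il2rg also occur in the overlapping gene Gm20489, 6.99% of those of Stat5b occur in Stat5a, 5.12% of those of Stat5a occur in Stat5b and 6.01% of those of Jak3 occur in Insl3. For the other 6 genes the share was at most 0.647%. Gm20489 itself held 0 counts in the DT-labelled and 1 count in the PBS-labelled libraries, and how the authors treated reads that fit both genes is not given in the sources used here.

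The promoter windows of Il7r and Il2ra are shown because these genes had the smallest unadjusted p among members with a positive and a negative difference. Each runs from 250 bases before to 50 bases after a RefSeq start in GRCm38.p6, and is written 5′ to 3′ on the strand of the gene (Il7r chr15:9529827-9530126, minus strand; Il2ra chr2:11642542-11642841, plus strand). Capitals mark TTCNNNGAA, the palindromic core to which STAT proteins bind, searched on both strands.
Il7r: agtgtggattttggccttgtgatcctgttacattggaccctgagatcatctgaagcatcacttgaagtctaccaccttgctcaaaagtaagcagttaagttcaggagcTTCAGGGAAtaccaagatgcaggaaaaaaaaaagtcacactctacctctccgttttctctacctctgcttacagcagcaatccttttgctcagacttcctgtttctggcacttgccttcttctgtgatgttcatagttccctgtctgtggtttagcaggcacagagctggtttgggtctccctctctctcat
Il2ra: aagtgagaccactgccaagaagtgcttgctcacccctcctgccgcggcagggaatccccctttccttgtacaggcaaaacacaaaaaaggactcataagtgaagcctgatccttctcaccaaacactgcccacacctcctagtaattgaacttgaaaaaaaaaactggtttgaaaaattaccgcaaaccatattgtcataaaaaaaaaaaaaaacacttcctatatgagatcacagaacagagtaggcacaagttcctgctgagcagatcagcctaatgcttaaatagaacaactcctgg
The Il7r window held 1 match, which began at position -142 from the start, and the Il2ra window held 0. The Il7r window lies wholly inside the GENCODE gene, which runs to 9530176 on the minus strand, so this match lies within the annotated gene. The table gave 10 windows for 7 members, Il2ra, Il2rg, Il15ra, Il7r, Jak3, Stat5a and Stat5b, and the Il7r match was the only one among them. Of all 32851 promoter windows of the same length, 8.3% held the motif. An interferon response element core, GAAA repeated after 2 bases of any kind and read on either strand, was in 0 of the 10 windows, against 3.44% of all windows.

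Library totals ranged from 94794512 to 109847604 counts. Counts were compared with edgeR's quasi-likelihood test over all tested genes, and levels are CPM, read counts relative to library sizes scaled by TMM, a scaling that holds the bulk of genes equal between libraries. Foxp3 was not lower in the DT libraries. It measured 5.41 ± 0.345 CPM in DT and 4.89 ± 0.44 CPM in PBS libraries (SD, n = 4 each; log2 fold change 0.15 ± 0.10, edgeR adjusted p = 0.595). Cd3e, a gene of the T cell receptor complex, averaged 1.33 CPM in DT and 0.265 CPM in PBS libraries. CPM is not corrected for gene length, so it cannot rank Foxp3 against Cd3e. How much of the Foxp3 RNA of the whole uterus came from regulatory T cells was not tested. Its level therefore cannot show whether these cells were removed. The libraries are therefore called DT-labelled and PBS-labelled. PBS-labelled libraries 1 and 2 stood apart from the other 6 in conceptus markers. The summed CPM of the trophoblast markers (10 genes, 9 tested) was 26.5 to 90.7 in the DT-labelled libraries, 232 and 530 in PBS-labelled libraries 1 and 2, and 22.3 and 46.7 in PBS-labelled libraries 4 and 6. The summed CPM of the yolk sac and embryo markers (10 genes, 8 tested) was 28.2 to 42.2 in the DT-labelled libraries, 116 and 463 in PBS-labelled libraries 1 and 2, and 32.6 and 46.3 in PBS-labelled libraries 4 and 6. These 2 libraries also share a suffix in their titles (S1) whose meaning the labels do not give, and each of the 4 suffixes occurs in only 1 group, so suffix and group cannot be told apart. Results that rest on these libraries are given with and without them.

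No member of the axis passed the test. Of the 10 genes, 0 had an edgeR Benjamini-Hochberg adjusted p under 0.05, against 0.326% of all genes tested. DESeq2 and limma voom also called 0 members, against 1.47% and 0.229% of all genes. At an unadjusted p under 0.05, edgeR gave 2 members higher in DT, Il7r and Il7, against 4.72% of all genes, and 1 lower, Il2ra, against 3.98%. The median log2 fold change (DT minus PBS) of the 10 genes was 0.003, and that of all tested genes was 0.007. Il7r was the only member whose 4 DT-labelled libraries all lay above the 4 PBS-labelled libraries, a separation shown by 3.33% of all genes. For 0 members did the DT-labelled libraries all lie below, against 1.73% of all genes. The same shares of all genes are the background for the other gene lists below. As these are whole tissues, a difference in the number of cells of a type and one in RNA per cell cannot be told apart.

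**Figure D1:**
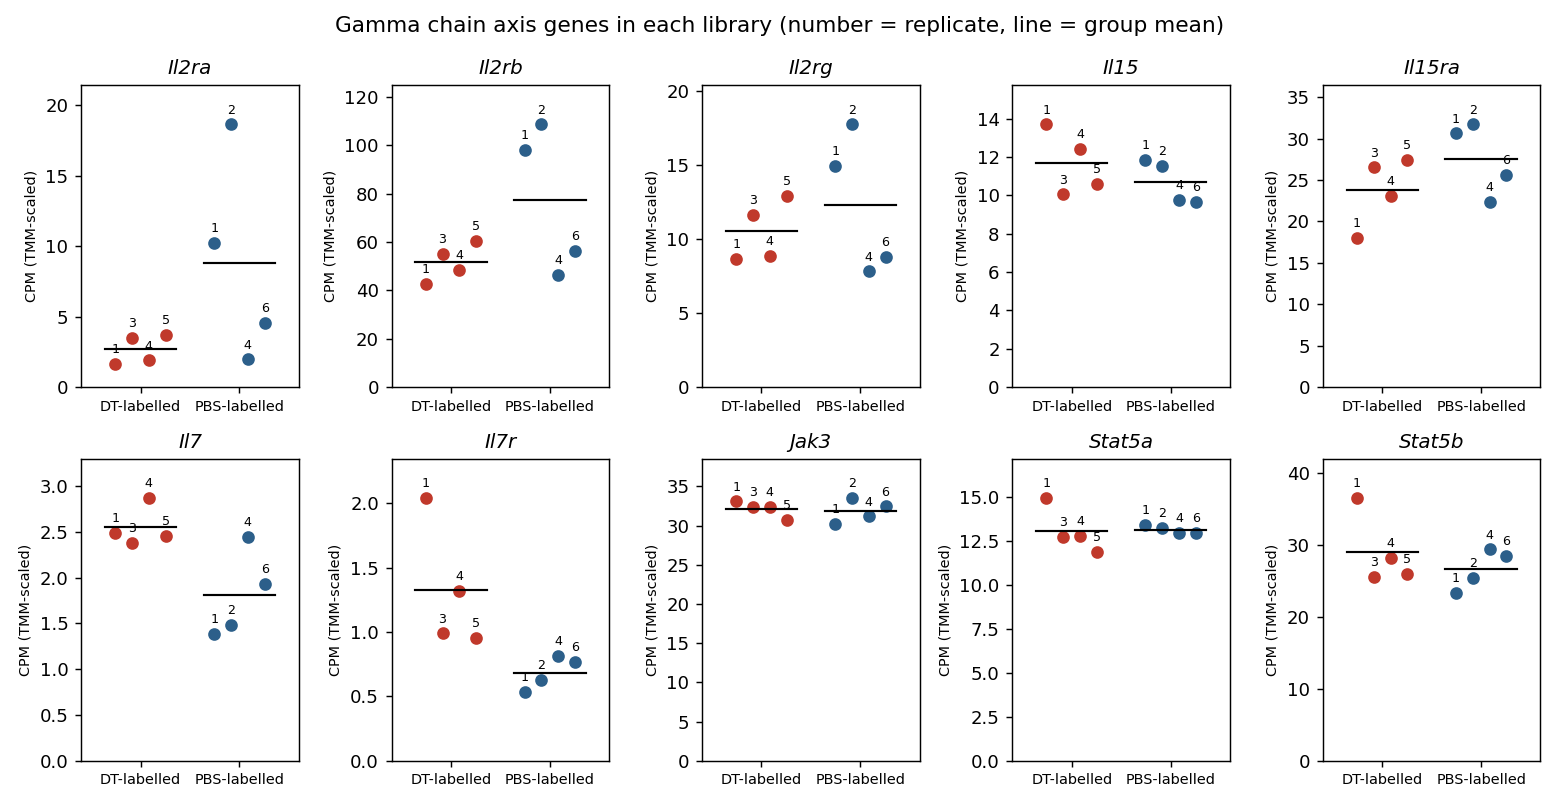
TMM-scaled CPM (y axis, from 0) of each gene in the 4 DT-labelled and 4 PBS-labelled libraries (x axis); points are libraries numbered by replicate and lines are group means. PBS-labelled libraries 1 and 2 are the highest for Il2ra, Il2rb, Il2rg and Il15ra and the lowest for Il7 and Il7r, while Jak3 and Stat5a differ little between the groups.

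The interleukin-2 receptor chains differed most between libraries of the PBS-labelled group. Il2ra, the alpha chain that gives the interleukin-2 receptor its high affinity, measured 1.67, 3.5, 1.89 and 3.73 CPM in DT-labelled libraries 1, 3, 4 and 5, and 10.2, 18.6, 1.96 and 4.54 CPM in PBS-labelled libraries 1, 2, 4 and 6. PBS-labelled libraries 1 and 2 were thus the highest, and PBS-labelled library 4 fell within the DT-labelled range. The means were 2.69 ± 1.07 CPM in DT-labelled and 8.83 ± 7.38 CPM in PBS-labelled libraries (SD, n = 4 each), and the coefficient of variation was 39.6% in DT-labelled and 83.6% in PBS-labelled libraries. On the log2 scale the fold change was -1.71 ± 0.64 (SE), with a 95% confidence interval of -3.19 to -0.24 and an edgeR adjusted p of 0.553. Without PBS-labelled libraries 1 and 2 it was -0.28 ± 0.47, with an interval of -1.41 to 0.85, and without PBS-labelled library 2 alone it was -1.05.

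Il2rb, the beta chain shared by the interleukin-2 and interleukin-15 receptors, measured 42.9, 55.1, 48.5 and 60.6 CPM in DT-labelled libraries 1, 3, 4 and 5, and 98.2, 109, 46.3 and 56.4 CPM in PBS-labelled libraries 1, 2, 4 and 6. The same 2 PBS-labelled libraries were high, and the other 2 lay inside the DT-labelled range. Its log2 fold change was -0.58 ± 0.27 (SE; edgeR adjusted p = 0.571) and was 0.01 ± 0.16 without PBS-labelled libraries 1 and 2. Il2rg, the common gamma chain, measured 8.64, 11.6, 8.89 and 12.9 CPM in DT-labelled libraries 1, 3, 4 and 5, and 14.9, 17.8, 7.82 and 8.81 CPM in PBS-labelled libraries 1, 2, 4 and 6. PBS-labelled libraries 1 and 2 lay above the DT-labelled range, library 4 lay below it and library 6 lay within it. For Il2rg the difference was -0.23 ± 0.28 (SE; edgeR adjusted p = 0.726), and its sign turned without PBS-labelled libraries 1 and 2 (0.34 ± 0.20). Reads shared with Gm20489 could not be placed for this gene.

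The 3 chains varied together between libraries. Over the 8 libraries, Pearson's r of log2 CPM was 0.98 between Il2ra and Il2rb, 0.89 between Il2ra and Il2rg and 0.92 between Il2rb and Il2rg. Over the 6 libraries other than PBS-labelled 1 and 2 the same values were 0.93, 0.59 and 0.77. These are descriptions of few libraries, which share their scaling.

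The interleukin-15 pair did not separate the groups. Il15, the ligand that supports uterine NK cells, measured 13.7, 10.1, 12.4 and 10.6 CPM in DT-labelled libraries 1, 3, 4 and 5, and 11.8, 11.6, 9.78 and 9.68 CPM in PBS-labelled libraries 1, 2, 4 and 6. The groups overlapped, with DT-labelled library 1 the highest. Its log2 fold change was 0.13 ± 0.12 (SE; 95% confidence interval -0.16 to 0.41; edgeR adjusted p = 0.669). Il15ra, the chain that binds interleukin-15 and presents it to neighbouring cells, measured 18, 26.5, 23 and 27.4 CPM in DT-labelled libraries 1, 3, 4 and 5, and 30.6, 31.7, 22.4 and 25.6 CPM in PBS-labelled libraries 1, 2, 4 and 6. DT-labelled library 1 was the lowest and PBS-labelled libraries 1 and 2 the highest, with the rest intermixed. Its log2 fold change was -0.22 ± 0.16 (SE; edgeR adjusted p = 0.608), with an interval of -0.58 to 0.15, and -0.02 ± 0.18 without PBS-labelled libraries 1 and 2. Il15ra followed Il2rb more closely than it followed its own ligand. Its r was 0.88 with Il2rb and -0.34 with Il15 over 8 libraries, and 0.94 with Il2rb and -0.75 with Il15 over 6.

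The interleukin-7 pair had the 2 positive differences of lowest unadjusted p. Il7r, the alpha chain of the interleukin-7 receptor, measured 2.04, 0.989, 1.32 and 0.951 CPM in DT-labelled libraries 1, 3, 4 and 5, and 0.534, 0.629, 0.812 and 0.765 CPM in PBS-labelled libraries 1, 2, 4 and 6. The lowest DT-labelled library lay above the highest PBS-labelled library, and DT-labelled library 1 was the highest of all. The group means were 1.32 ± 0.504 CPM in DT-labelled and 0.685 ± 0.127 CPM in PBS-labelled libraries (SD, n = 4 each). The log2 fold change was 0.95 ± 0.28 (SE), 1.93-fold, with an interval of 0.31 to 1.59. It did not pass the test (edgeR adjusted p = 0.451, DESeq2 adjusted p = 0.0815, limma voom adjusted p = 0.512). Without PBS-labelled libraries 1 and 2 the value was 0.75 ± 0.36, with an interval of -0.12 to 1.62. Without DT-labelled library 1 the value was 0.66.

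Il7, the ligand, which stromal and epithelial cells make in many tissues, measured 2.48, 2.38, 2.87 and 2.46 CPM in DT-labelled libraries 1, 3, 4 and 5, and 1.38, 1.49, 2.45 and 1.93 CPM in PBS-labelled libraries 1, 2, 4 and 6. PBS-labelled library 4 lay within the DT-labelled range and the other PBS-labelled libraries lay below it. Il7 differed by 0.49 ± 0.19 on the log2 scale (SE; edgeR adjusted p = 0.559; interval 0.05 to 0.93), and by 0.22 ± 0.16 without PBS-labelled libraries 1 and 2 (interval -0.17 to 0.60). Il7 and Il7r ran opposite to Il2ra. Over the 8 libraries r with Il2ra was -0.92 for Il7 and -0.79 for Il7r. Over the 6 libraries it was -0.72 for Il7 and -0.68 for Il7r. With Il2rb, r was -0.91 for Il7 and -0.78 for Il7r over 8, and -0.42 and -0.65 over 6. With Il2rg, r was -0.73 for Il7 and -0.59 for Il7r over 8, but 0.02 and -0.14 over 6.

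The kinase and the STAT5 genes had the log2 differences nearest to 0 among the members. Jak3, the kinase bound to the gamma chain, measured 33.1, 32.4, 32.3 and 30.7 CPM in DT-labelled libraries 1, 3, 4 and 5, and 30.2, 33.5, 31.2 and 32.4 CPM in PBS-labelled libraries 1, 2, 4 and 6. Its coefficient of variation was 3.15% in DT-labelled and 4.53% in PBS-labelled libraries, and the groups overlapped throughout. Jak3 had a difference on the log2 scale of 0.01 ± 0.06 (SE; edgeR adjusted p = 0.928), with an interval of -0.11 to 0.14. Stat5a measured 14.9, 12.7, 12.8 and 11.8 CPM in DT-labelled libraries 1, 3, 4 and 5, and 13.4, 13.2, 12.9 and 12.9 CPM in PBS-labelled libraries 1, 2, 4 and 6, which all lay inside the DT-labelled range. Its log2 fold change was -0.01 ± 0.08 (SE; edgeR adjusted p = 0.978), with an interval of -0.20 to 0.18. Stat5b, its close relative, measured 36.6, 25.6, 28.3 and 26 CPM in DT-labelled libraries 1, 3, 4 and 5, and 23.4, 25.4, 29.4 and 28.5 CPM in PBS-labelled libraries 1, 2, 4 and 6. DT-labelled library 1 was the highest for both STAT5 genes. The difference for Stat5b was 0.12 ± 0.13 (SE; edgeR adjusted p = 0.685), with an interval of -0.17 to 0.42.

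**Figure D2:**
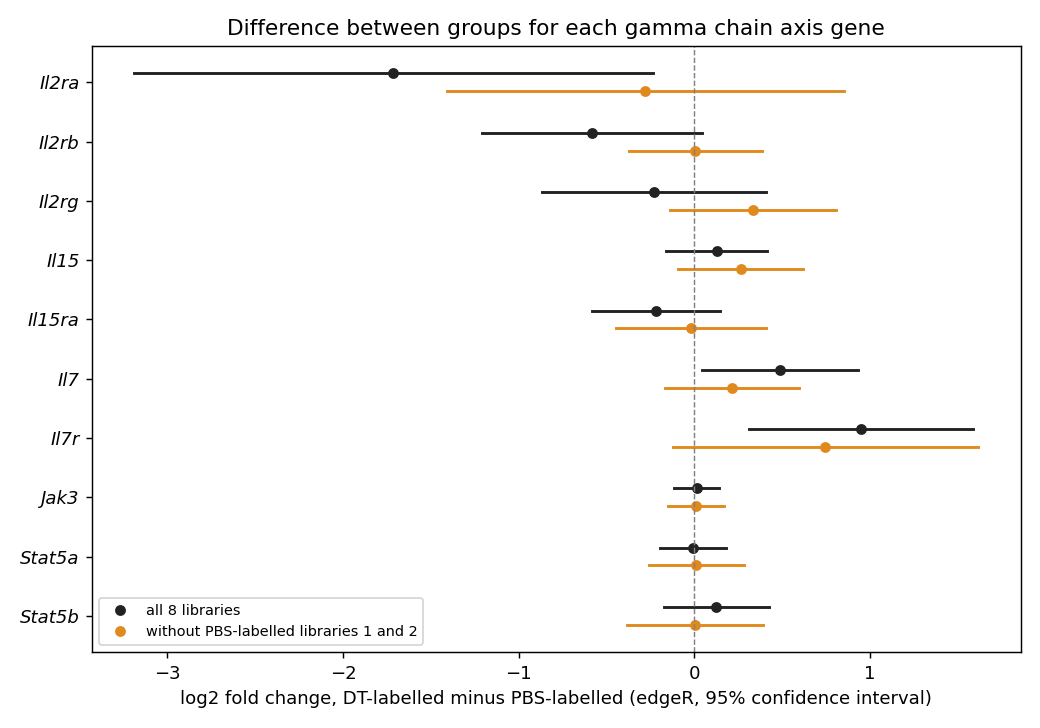
edgeR log2 fold change (x axis, DT-labelled minus PBS-labelled) of each gene (y axis) with its 95% confidence interval, over all 8 libraries (black) and without PBS-labelled libraries 1 and 2 (orange). The Il2ra estimate is -1.71 with all libraries and -0.28 without these 2, and the Il7r estimate is 0.95 and 0.75. Without these 2 libraries the intervals of all members span 0, with Il7r at -0.12 to 1.62. The intervals of Jak3 and Stat5a span 0 in both fits.

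Per kilobase of annotated exon, Il2rb was the most abundant member in both groups. The order in the DT-labelled libraries was Il2rb, Jak3, Il15ra, Stat5b, Il15, Il2rg, Stat5a, Il2ra, Il7 and Il7r. Il2rb averaged 12.1 ± 1.8 CPM per kilobase in DT-labelled and 18.1 ± 7.15 CPM per kilobase in PBS-labelled libraries (SD, n = 4 each). Jak3, Il15ra, Stat5b, Il15 and Il2rg formed a middle group with means of 4.41 to 6 CPM per kilobase in DT-labelled and 4.74 to 6.2 CPM per kilobase in PBS-labelled libraries, and each overlapped its neighbour in the order over the 4 libraries. Stat5a followed at 1.83 ± 0.183 CPM per kilobase in DT-labelled and 1.84 ± 0.0329 CPM per kilobase in PBS-labelled libraries. The 3 lowest members were Il2ra, Il7 and Il7r, at 0.472, 0.449 and 0.284 CPM per kilobase in DT-labelled and 1.55, 0.32 and 0.147 CPM per kilobase in PBS-labelled libraries. In DT-labelled libraries Il2ra overlapped Il7, and Il7 overlapped Il7r. In PBS-labelled libraries Il2ra overlapped both Stat5a above and Il7 below it, while Il7 and Il7r did not overlap. Taking the longest transcript as the length put Il15ra in second place in both groups, at 10.3 CPM per kilobase in DT-labelled and 11.9 in PBS-labelled libraries, and left the 3 lowest genes in the same order.

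**Figure D3:**
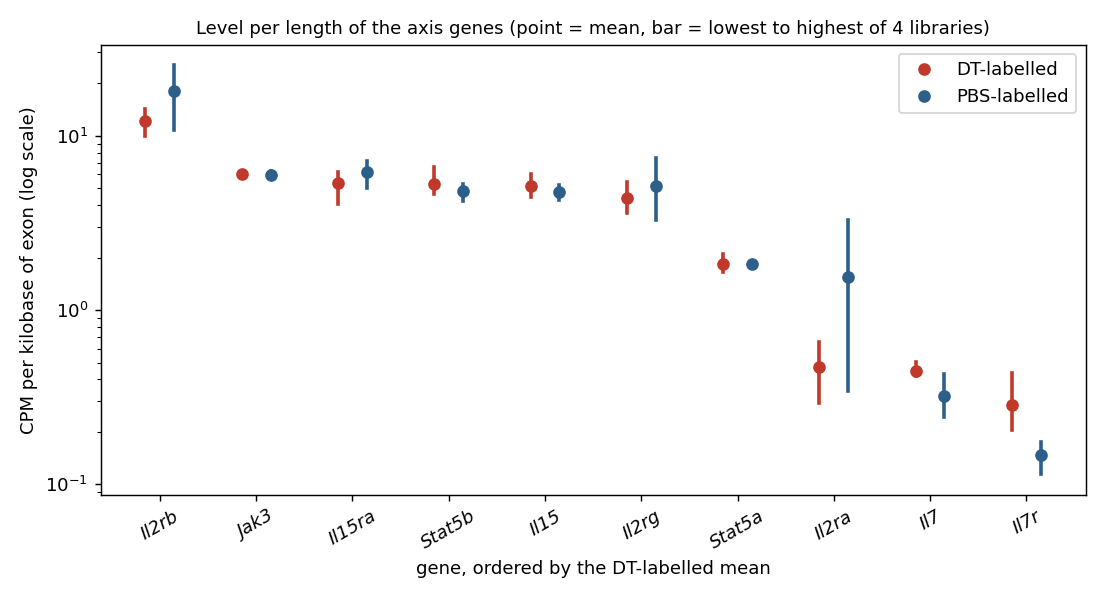
CPM per kilobase of exon (y axis, log scale) of each gene (x axis, ordered by the DT-labelled mean); points are group means and bars run from the lowest to the highest of 4 libraries. Il2rb is highest at 12.1 in DT-labelled and 18.1 in PBS-labelled libraries, and Il7r is lowest at 0.284 in DT-labelled and 0.147 in PBS-labelled libraries.

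Of the other ligands of the family, Il2, Il9 and Il21 were barely detected, while Il4 had 459 counts in the DT-labelled and 343 in the PBS-labelled libraries. Il2, the interleukin-2 gene, had 10 counts in all over the 4 DT-labelled libraries and 10 over the 4 PBS-labelled libraries. Il21 had 7 counts in the DT-labelled and 1 in the PBS-labelled libraries, and Il9 had 1 in the DT-labelled and 2 in the PBS-labelled libraries. A count of 0 in a library allows up to 3 counts, or 0.0233 to 0.0327 CPM here, counting error only, so differences in these 3 genes were not detectable at this depth. Of 9 other gamma chain cytokine and receptor genes, 6 passed the filter on low counts and 0 were called by edgeR, against 1 higher by DESeq2 and 0 by limma voom. At an unadjusted p under 0.05, 1 was higher and 1 was lower by edgeR, against 4.72% and 3.98% of all genes.

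Those genes were Il21r and Il4ra. Il21r, the interleukin-21 receptor, measured 3.86, 3.6, 2.95 and 3.06 CPM in DT-labelled libraries 1, 3, 4 and 5, and 1.62, 2.28, 2.51 and 2.11 CPM in PBS-labelled libraries 1, 2, 4 and 6. All DT-labelled libraries lay above the PBS-labelled ones, a separation shown by 3.33% of all genes. Its log2 fold change was 0.66 ± 0.16 (SE; edgeR adjusted p = 0.296, DESeq2 adjusted p = 0.0115, limma voom adjusted p = 0.263) and 0.54 ± 0.17 without PBS-labelled libraries 1 and 2. Il4ra, which pairs with the gamma chain in the interleukin-4 receptor, measured 119, 162, 147 and 192 CPM in DT-labelled libraries 1, 3, 4 and 5, and 256, 256, 203 and 187 CPM in PBS-labelled libraries 1, 2, 4 and 6. Here DT-labelled library 5 overlapped PBS-labelled library 6. For Il4ra the log2 fold change was -0.54 ± 0.17 (SE; edgeR adjusted p = 0.473), and -0.34 ± 0.18 without PBS-labelled libraries 1 and 2.

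Among 12 signalling partners, 1 rose, 0 fell and 11 did not pass (edgeR adjusted p under 0.05; median log2 fold change 0.09). The gene that rose was Lck, a kinase of T cells and NK cells that also binds the interleukin-2 receptor beta chain. Lck measured 7.52, 6.86, 6.49 and 6.99 CPM in DT-labelled libraries 1, 3, 4 and 5, and 3.27, 4.13, 4.53 and 4 CPM in PBS-labelled libraries 1, 2, 4 and 6, which is 1.75-fold (log2 0.81 ± 0.12, SE; edgeR adjusted p = 0.0417). DESeq2 called 2 partners higher and limma voom 1. Without PBS-labelled libraries 1 and 2, the log2 fold change of Lck was 0.70 ± 0.12 and its edgeR adjusted p was 0.375, in a fit that called 0 genes higher. Leaving out any 1 of the 8 libraries also ended the call, with edgeR adjusted p of 0.0504 to 0.173 for Lck. Among 13 genes that STAT5 induces or that feed back on it, 0 passed by edgeR, DESeq2 or limma voom, and the median log2 fold change was -0.01. At an unadjusted p under 0.05, edgeR gave 2 of them higher and 0 lower, against 4.72% and 3.98% of all genes. Socs1, a feedback inhibitor of JAK kinases, measured 4.65 to 6.21 CPM in DT-labelled and 3.4 to 4.54 CPM in PBS-labelled libraries. This lack of overlap, with DT-labelled libraries above, was shown by 3.33% of all genes. The log2 difference of Socs1 was 0.47 ± 0.14 (SE; edgeR adjusted p = 0.462). Cish, a STAT5-induced inhibitor, measured 16.2, 13.9, 15.6 and 15 CPM in DT-labelled libraries 1, 3, 4 and 5, and 9.58, 9.36, 14.5 and 12.6 CPM in PBS-labelled libraries 1, 2, 4 and 6. As for Il7, the PBS-labelled libraries 1 and 2 were the lowest, and the log2 fold change of Cish was 0.40 ± 0.15 with all libraries and 0.16 ± 0.10 without these 2.

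The members are set here beside markers of the cell types that the tissue holds. For 13 NK cell markers the summed CPM was 225, 364, 290 and 382 in DT-labelled libraries 1, 3, 4 and 5, and 635, 773, 302 and 434 in PBS-labelled libraries 1, 2, 4 and 6. As for Il2rb, the highest sums were in PBS-labelled libraries 1 and 2 and the lowest was in DT-labelled library 1. All 13 were tested and 0 were called by edgeR, against 1 higher by DESeq2 and 0 by limma voom. Unadjusted, edgeR gave 3 of them higher and 4 of them lower (p under 0.05), against 4.72% and 3.98% of all genes. Itga1 and Gzmb made up 57.4% of the sum. Ncr1, the activating receptor that defines NK cells, followed the sum only in part. It measured 6.06, 6.07, 6.08 and 5.16 CPM in DT-labelled libraries 1, 3, 4 and 5, and 7.25, 6.29, 5.16 and 6.07 CPM in PBS-labelled libraries 1, 2, 4 and 6. Like the sum, Ncr1 was highest in PBS-labelled libraries 1 and 2. Its lowest values were in DT-labelled library 5 and PBS-labelled library 4, and not in DT-labelled library 1. The sum of 10 decidual stroma markers was 2885 to 8900 CPM in DT-labelled and 6185 to 11647 CPM in PBS-labelled libraries, lowest in DT-labelled library 1, and 0 of the 10 were called by edgeR, DESeq2 or limma voom or at an unadjusted p under 0.05. Prl8a2, a prolactin of the decidua, made up 62.6% of it. In the trophoblast and the yolk sac and embryo lists 0 genes were called by edgeR or limma voom, DESeq2 called 1 and 2 lower, and edgeR gave 3 and 5 lower at an unadjusted p under 0.05. Their median log2 fold changes were -2.08 and -3.01 with all libraries, and 0.83 and -0.02 without PBS-labelled libraries 1 and 2. The part of these cells in the values of the interleukin-2 and interleukin-15 receptor chains was not tested.

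Sums of T cell and of macrophage markers, like Il7r, did not overlap between the groups and were higher in the DT-labelled libraries. Of 13 T cell markers 4 rose and 0 fell (edgeR adjusted p under 0.05; median log2 fold change 1.51), against 0.326% of all genes called in either direction. The T cell list sum was 29.5 to 37.2 CPM in DT-labelled and 23.1 to 27.2 CPM in PBS-labelled libraries. Cd3e, part of the CD3 signalling complex of T cells, rose (log2 fold change 2.31 ± 0.28, SE; edgeR adjusted p = 0.0314). It measured 1.21, 1.14, 1.34 and 1.61 CPM in DT-labelled libraries 1, 3, 4 and 5, and 0.207, 0.165, 0.397 and 0.293 CPM in PBS-labelled libraries 1, 2, 4 and 6. Cd247 alone made up 45.4% of the T cell sum. DESeq2 called 9 T cell markers higher and limma voom 3. Of 12 macrophage and dendritic cell markers 3 rose and 0 fell, with a list sum of 446 to 470 CPM in DT-labelled and 320 to 403 CPM in PBS-labelled libraries, and DESeq2 called 5 higher and limma voom 2. Of 12 interferon-gamma response genes 6 rose and 0 fell, with a list sum of 456 to 1094 CPM in DT-labelled and 234 to 329 CPM in PBS-labelled libraries, while Il15 and Il15ra, which interferons can induce in many cell types, did not pass. DESeq2 called 11 of these 12 higher and limma voom 4, and edgeR gave 12 of 12 higher at an unadjusted p under 0.05. Without PBS-labelled libraries 1 and 2, edgeR called 0 genes in these 3 lists, and it called 0 in them without DT-labelled library 3, 4 or 5 or PBS-labelled library 1, 2 or 6. The log2 fold changes without PBS-labelled libraries 1 and 2 were 2.51 ± 0.44 for Igtp, an interferon-induced GTPase, against 2.46 ± 0.30 with all libraries, and 1.94 ± 0.24 for Cd3e. When DT-labelled library 1 was left out as well, edgeR called 61 genes higher, with an adjusted p of 0.00757 for Igtp and 0.0737 for Cd3e. Leaving out DT-labelled library 1 alone gave 115 genes called higher in DT, and in either direction edgeR then called 11 interferon-gamma response genes, 4 macrophage and dendritic cell markers and 3 T cell markers. In the lists for regulatory T cells (10 genes, 9 tested), type 2 innate lymphoid cells (8 genes, 6 tested), B cells (7) and uterine epithelium (9), 0 members were called by edgeR. At an unadjusted p under 0.05, edgeR gave 1 regulatory T cell marker higher, 2 type 2 innate lymphoid markers higher and 1 lower, 3 B cell markers lower and 0 epithelial markers. Of all genes, 4.72% were higher and 3.98% lower at this threshold. DESeq2 called 1 regulatory T cell marker higher, 1 type 2 innate lymphoid marker lower and 2 B cell markers lower, and limma voom called 0 in these 4 lists. In the lists, only the ligands Il9 and Il21 were at or under 3 counts in all 8 libraries. The part of these cells in the Il7r values was not tested.

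**Figure D4:**
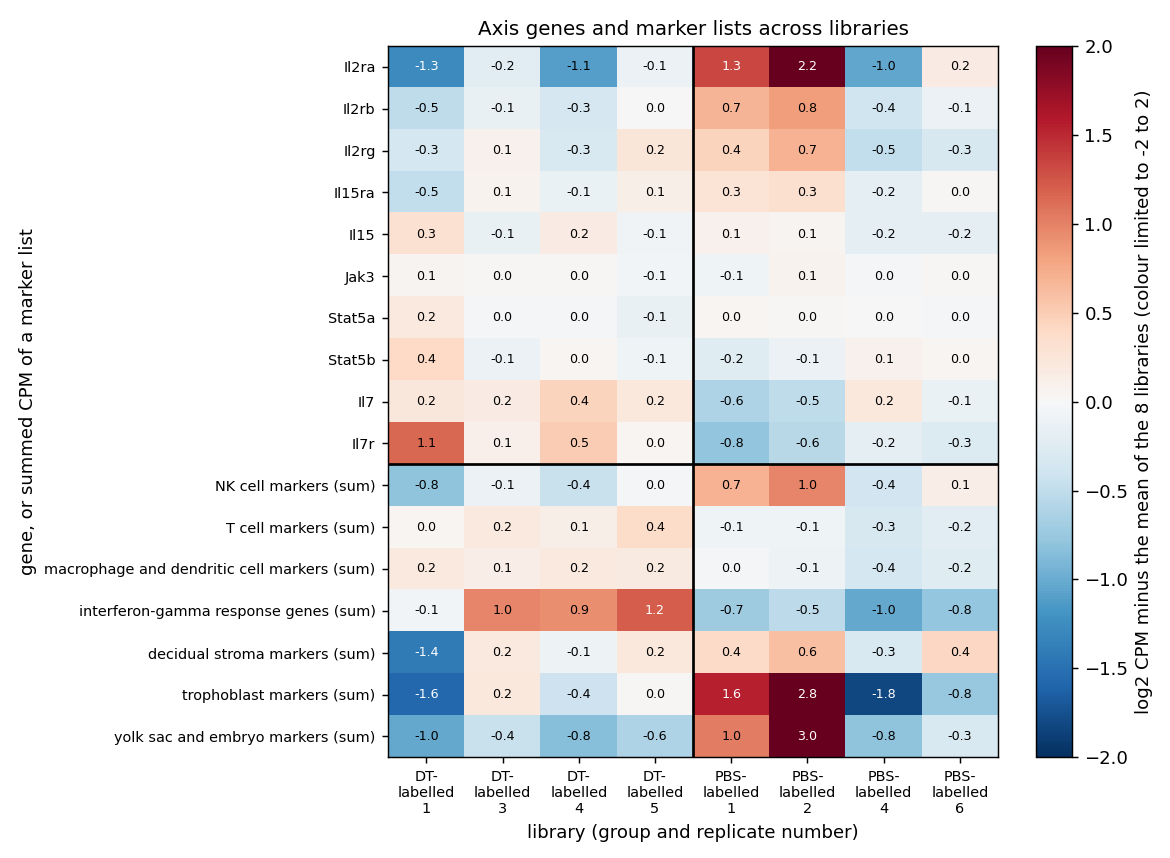
log2 CPM of each gene and of the summed CPM of 7 marker lists (rows), minus the mean of the 8 libraries, in the 4 DT-labelled and 4 PBS-labelled libraries (columns); red is above and blue below the mean. Il2ra and the NK cell, trophoblast and yolk sac sums are highest in PBS-labelled libraries 1 and 2, and Il7r is highest in DT-labelled library 1.

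For each member the 2 genes of most similar pattern were found by Pearson's r of log2 CPM over the 8 libraries, among 13747 tested genes whose mean log2 CPM was 0 or more. They were Slc16a1 and Ren1 for Il2ra (r = 0.998 and 0.996), Smim3 and Pappa for Il2rb (0.999 and 0.997), Tmc8 and Parvg for Il2rg (both 0.99), and Atp6v1g1 and Eif6 for Il15ra (0.997 and 0.996). For Il15 they were Cited1 and Arg1 (both 0.91), for Il7 Srek1ip1 and Commd3 (both 0.98), and for Il7r Ms4a7 (0.99) and Bend5 (0.98). For Jak3 they were Socs6 and Slc22a4 (both 0.93), for Stat5a Dennd4a (0.99) and Dync2h1 (0.98), and for Stat5b Arhgap32 and Gng2 (both 0.99). Without PBS-labelled libraries 1 and 2 the lowest of these values was 0.85, between Jak3 and Slc22a4. With this many candidates and 8 libraries, high values are found for every member.

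The calls depended on single libraries. Leaving out PBS-labelled library 4, whose trophoblast sum was the lowest of all at 22.3 CPM, was the only one of 33 alternatives that called any member, and only by DESeq2. It called 2 members higher, Il7 (log2 fold change 0.65, adjusted p = 0.00367) and Il7r (1.03, adjusted p = 0.0303), against 4.36% of all genes. It called 2 lower, Il2ra (-2.06, adjusted p = 0.00136) and Il2rb (-0.78, adjusted p = 0.0283), against 4.81% of all genes. Without the same library, edgeR gave adjusted p of 0.134 for Il7, 0.162 for Il7r, 0.138 for Il2ra and 0.159 for Il2rb. Over all 33 alternatives the adjusted p ran from 0.00367 to 1 for Il7, from 0.0303 to 1 for Il7r, from 0.00136 to 1 for Il2ra and from 0.0283 to 1 for Il2rb.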

How the data were processed

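RNA of the entire uterus was sequenced as paired reads of about 75 bases, 8 libraries of 4 DT and 4 PBS females. The values the authors deposited are unnormalized whole counts of reads for each Ensembl gene, in 1 table of the series and in 8 tables of single libraries with the same values. Build GRCm38 and the tools featureCounts, HISAT2, Trimmomatic, DESeq2 and SAMtools are named, per the submitters' processing notes. Versions, annotation release, strand setting and the handling of multi-mapped reads are not given there, so antisense and overlapping genes could not be told apart. The labels give no litter, cage or day, and p-values measure the spread between these libraries.

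Of 49585 genes, 49326 matched GENCODE M21. Counts were filtered with filterByExpr (minimum count 10, minimum total 15), scaled by TMM and tested in edgeR 4.0.16 (R 4.3.3) with a two-sided glmQLFTest on a robust glmQLFit, in which treatment was the sole covariate, and Benjamini-Hochberg adjustment over 22693 genes. Genes at an adjusted p under 0.05 were called. Standard errors are the log2 fold change divided by the root of F. DESeq2 1.42.0, limma voom 3.58.1, other scalings, no filter and left-out libraries were alternatives. The fit was checked on simulated counts. It called 66 of 100 genes given a log2 change of 1 and 96 of 100 given a change of 2, in either direction. Of all genes called there, 6.36% had been given no change. The changed genes were drawn from those with a mean above 1 CPM, and no simulated library stood apart from its group. These shares therefore need not hold for genes of lower level or for the libraries measured here. No library pair agreed within sampling noise (smallest chi-square per degree of freedom 28.8 over 28 pairs). Shared windows were computed in Python 3.11.15 from transcript sequences.

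The members, 14 further gene lists and tests were chosen with earlier results of these data known. Named genes were all members, from each list up to 4 called members (otherwise the 2 of smallest p), the 2 genes most like each member, Foxp3, Ncr1 and Cd3e. 1 gene that this rule names is not reported here.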

Additional observations from a re-analysis of the deposited data

Results flagged for a closer look

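Of 88 groups of 4 libraries (44 named genes, each in DT-labelled and in PBS-labelled libraries), 2 held a library whose gap to the nearest other library passed Dixon's 95% critical share of the group's range, where chance alone is expected to give 4.4. Ncr1 measured 5.16 CPM in DT-labelled library 5, against 6.06 to 6.08 CPM in the other 3 DT-labelled libraries. Prl3b1, a placental lactogen, measured 1.6 CPM in PBS-labelled library 2, against 0.085 to 0.338 CPM in the other 3 PBS-labelled libraries. No gene of the gamma chain axis was among them.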

How the results depend on the processing

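Over 33 alternatives, Il2ra, Il15, Il7 and Il7r kept their direction. Il2rb turned to 0.0073 without PBS-labelled libraries 1 and 2 and to 0.092 when DT-labelled library 1 was left out as well. In the same 2 fits Il2rg turned to 0.336 and 0.424, Krt8 to 0.563 and 0.614 and Ncr1 to 0.054 and 0.040, and Stat5a turned to 0.012 in the first. In the second alone Il15ra was 0.097, Jak3 -0.00044, Stat5b -0.122, Ikzf2 -0.047 and Prl8a2 0.040. Library size in place of TMM shifted the median of all genes to 0.12 and turned Stat5a to 0.118 and Ncr1 to 0.044. Leaving out single libraries, other tools included, gave -0.409 to 0.045 for Il2rg, -0.022 to 0.038 for Jak3, -0.082 to 0.041 for Stat5a and -0.01002 to 0.183 for Stat5b. By edgeR alone, leaving out single libraries gave -0.16 to 0.000102 for Ncr1.

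Members called ranged from 0 to 2 in each direction. Genes called higher in DT and genes called lower in DT were 73 and 1 by edgeR, 275 and 58 by DESeq2, 2 lower by library size, 0 higher without PBS-labelled libraries 1 and 2, and 0 to 1003 higher and 0 to 1105 lower without single libraries, the last by DESeq2 without PBS-labelled library 4. By edgeR 0 genes were called without DT-labelled library 3, 4 or 5 or PBS-labelled library 1, 2 or 6. Of 210 list counts, 49 moved. The causes were not tested. Leaving out DT-labelled library 1 with PBS-labelled 1 and 2, the other tools without single libraries and the fit without the block were chosen after seeing the data. Only numbers 1 and 4 occur in both groups, and same-numbered libraries deviated with r of -0.49 and 0.32. Libraries of different number gave r of -0.60 to 0.59, so these values cannot decide whether the numbers pair females. Over the 4 libraries numbered 1 or 4, 0 genes were called with the replicate block and 0 without it. Stat5a was at 0.063 with the block and 0.0676 without it. Among the axis and pathway genes, Il2, Il9 and Il21 had too few counts to test.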

Other observations

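No B cell gene passed the edgeR test, and DESeq2 called 2 lower. All 7 B cell markers had a negative log2 fold change, with a median of -0.50, and their sum was 1.39 to 2.01 CPM in DT-labelled and 2.14 to 3.78 CPM in PBS-labelled libraries. Pax5, the transcription factor of the B cell lineage, differed by -1.95 ± 0.39 on the log2 scale (edgeR adjusted p = 0.147, DESeq2 adjusted p = 0.000667, limma voom adjusted p = 0.193), and by -1.42 ± 0.31 without PBS-labelled libraries 1 and 2. Il7 and Il7r, on which mouse B cell precursors depend, had differences of the opposite sign that did not pass the edgeR test. A link between these 2 genes and the B cell markers was not tested.

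Among type 2 innate lymphoid markers, Il17rb, a chain of the interleukin-25 receptor, measured 5.34, 11.1, 9.07 and 11.1 CPM in DT-labelled libraries 1, 3, 4 and 5, and 27, 24, 14.3 and 12.7 CPM in PBS-labelled libraries 1, 2, 4 and 6. All DT-labelled libraries lay below the PBS-labelled ones, as for 1.73% of all genes. The log2 fold change of Il17rb was -1.09 ± 0.31 (SE; edgeR adjusted p = 0.433, DESeq2 adjusted p = 0.0476, limma voom adjusted p = 0.492). Without PBS-labelled libraries 1 and 2, where it was highest, it was -0.57 ± 0.29. Tigit, an inhibitory receptor of regulatory T and NK cells, measured 1.17 to 1.26 CPM in DT-labelled and 0.712 to 0.803 CPM in PBS-labelled libraries, and its difference on the log2 scale was 0.65 ± 0.12 (edgeR adjusted p = 0.107, DESeq2 adjusted p = 0.00109, limma voom adjusted p = 0.0894). Tbx21, a transcription factor of NK cells and type 1 T cells, measured 1.5 to 1.59 CPM in DT-labelled and 1.07 to 1.2 CPM in PBS-labelled libraries. Its difference on the log2 scale was 0.45 ± 0.11 (edgeR adjusted p = 0.276, DESeq2 adjusted p = 0.0282, limma voom adjusted p = 0.239). Tbx21 does not stand for its list, as 5 of the 13 NK cell markers had a positive and 8 a negative log2 fold change.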
